A study of Mus musculus with 8 samples.

Results

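Hepatic stellate cells and the matrix they lay down were followed through 40 genes, taken from the 55335 genes of the count table by their symbols: collagens, basement membrane proteins, proteoglycans, cross-linking enzymes, matrix proteases with their inhibitors, TGF-beta and PDGF receptors, contractile genes and markers of resting stellate cells. All 40 symbols were found, and 39 passed the filter on low counts that selected 15234 genes for testing. Lox alone fell below it. The RNA came from the livers of 8 female mice on the NIAAA chronic-plus-binge ethanol regimen, and each mouse was a separate animal. In 4 of them (numbers 28, 34, 37 and 39, Ripk1-hepKO) Ripk1 was deleted in hepatocytes, and the other 4 (29, 32, 40 and 41, Ripk1-Con) were the ethanol-fed controls. The deleting transgene, the strain and the age of the mice are not given in the sources used here. No ethanol-free group was analysed here, so every comparison is between genotypes under ethanol.

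Stellate cells lie between the hepatocytes and the sinusoidal endothelium. At rest they store vitamin A as retinyl esters, and in an injured liver they can turn into myofibroblasts that secrete fibrillar collagen under the influence of TGF-beta and PDGF. Portal fibroblasts, endothelial cells, smooth muscle cells and hepatocytes also make part of the matrix, fibronectin from hepatocytes being the best known case. Levels in whole liver therefore sum several sources, and more cells of a type cannot be told apart from more RNA per cell.

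Read totals ranged from 28038390 to 67328158 counts per library. As a check of the labels, the level of Ripk1 was 23.1 to 38.1 CPM (counts relative to library size, scaled by TMM) in the Ripk1-hepKO livers and 27.8 to 53.6 CPM in the Ripk1-Con livers. The fitted log2 fold change, Ripk1-hepKO over Ripk1-Con as throughout, was -0.21 with an SE of 0.22 (adjusted p = 0.866 in edgeR's quasi-likelihood test). Hepatocyte-restricted deletion leaves the gene in other liver cells, and a count per gene does not show the loss of an exon, so each direction below rests on the labels. The library of mouse 28 stood apart, with a mean Spearman correlation of 0.954 with the other libraries, against 0.974 to 0.980 for the rest. Its mitochondrial share of counts was 10.5%, against 8.86% to 9.74% in the other 7, and its 10 most abundant genes took 20.7% of counts, within the range of the rest. The hepatocyte marker list was abundant in every mouse, with a mean level of 11.84 to 12.17 on the log2(CPM + 1) scale in Ripk1-hepKO and 12.12 to 12.40 in Ripk1-Con. Of 10 markers of stellate cells, which include 6 of the 40 genes, none was at 0 in every mouse, and the mean level was 4.03 to 4.20 in Ripk1-hepKO and 3.76 to 4.02 in Ripk1-Con.

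Upstream sequence is shown for 6 genes that stand for the roles compared below: the ligand and receptor of TGF-beta, the fibrillar collagen of lowest p and one that was high in a single liver, the vitamin A enzyme of resting cells, and the protease inhibitor that was most uneven between mice. Each is the 250 bases before the RefSeq transcript start on GRCm38.p6, written 5′ to 3′ on the strand of the gene, and none holds an annotated exon. Capitals mark exact matches to the TATA box letters TATAAA, to the CCAAT box, to the AP-1 letters TGANTCA and to the GC box letters GGGCGG on either strand, so that a match on the opposite strand shows as its reverse complement.
Tgfb1: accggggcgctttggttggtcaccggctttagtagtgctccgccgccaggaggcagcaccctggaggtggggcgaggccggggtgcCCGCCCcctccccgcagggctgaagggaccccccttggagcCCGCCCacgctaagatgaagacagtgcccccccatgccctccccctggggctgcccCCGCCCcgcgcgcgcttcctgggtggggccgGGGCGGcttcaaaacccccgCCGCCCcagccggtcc
Tgfbr2: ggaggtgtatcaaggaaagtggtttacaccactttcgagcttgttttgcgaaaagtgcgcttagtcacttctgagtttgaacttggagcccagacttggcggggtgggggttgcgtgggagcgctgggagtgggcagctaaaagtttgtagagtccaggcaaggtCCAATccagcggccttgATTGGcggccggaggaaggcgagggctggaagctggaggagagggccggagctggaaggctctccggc
Col5a1: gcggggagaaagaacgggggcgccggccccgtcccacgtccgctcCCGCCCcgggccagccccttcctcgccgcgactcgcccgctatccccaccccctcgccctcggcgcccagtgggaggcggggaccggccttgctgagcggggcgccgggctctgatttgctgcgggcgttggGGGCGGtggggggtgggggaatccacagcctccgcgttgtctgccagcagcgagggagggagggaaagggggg
Col3a1: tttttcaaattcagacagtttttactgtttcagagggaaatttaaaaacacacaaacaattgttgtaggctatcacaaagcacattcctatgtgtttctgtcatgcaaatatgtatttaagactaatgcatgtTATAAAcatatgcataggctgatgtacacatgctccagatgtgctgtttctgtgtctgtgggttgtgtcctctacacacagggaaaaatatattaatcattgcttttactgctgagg
Lrat: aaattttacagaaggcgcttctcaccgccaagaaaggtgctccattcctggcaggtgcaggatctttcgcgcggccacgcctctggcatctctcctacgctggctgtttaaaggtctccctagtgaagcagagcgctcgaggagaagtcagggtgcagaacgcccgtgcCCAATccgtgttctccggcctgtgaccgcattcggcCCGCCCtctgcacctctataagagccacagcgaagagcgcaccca
Timp1: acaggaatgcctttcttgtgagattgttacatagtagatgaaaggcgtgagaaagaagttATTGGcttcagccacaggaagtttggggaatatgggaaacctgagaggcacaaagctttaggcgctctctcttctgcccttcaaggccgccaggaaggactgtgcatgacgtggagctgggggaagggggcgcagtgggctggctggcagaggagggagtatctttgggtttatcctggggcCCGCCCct

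These windows lie at chr7:25686752-25687001 on the plus strand (Tgfb1), chr9:116175364-116175613 on the minus strand (Tgfbr2), chr2:27886175-27886424 on the plus strand (Col5a1), chr1:45311288-45311537 on the plus strand (Col3a1), chr3:82903975-82904224 on the minus strand (Lrat) and chrX:20869916-20870165 on the plus strand (Timp1). Their base composition differed widely, with 75.2% G and C in Tgfb1, 76.4% in Col5a1 and 35.2% in Col3a1. The Tgfb1 window held 5 matches to GGGCGG. Tgfbr2 had CCAAT once on each strand, from 85 and from 68 bases before the start. Col3a1 held TATAAA 117 to 112 bases before the start and none of the other motifs. The Lrat window combined CCAAT with GGGCGG, as did that of Timp1, and none of the 6 windows held TGANTCA. RefSeq windows were found for 26 of the 40 genes, 28 windows in all. Among those, 17 held GGGCGG, 11 CCAAT, 1 TATAAA and 1 TGANTCA, whereas over the 32851 windows of all genes the shares were 32.7%, 33.8%, 12.4% and 6.75%. A match in these letters is a description and no evidence of binding.

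Matrix and stellate cell genes lay mostly above their control level in the Ripk1-hepKO livers, but no gene among them passed the threshold. Of 39 tested, 38 had a log2 fold change above 0 (97.4%), against 51.8% of all genes tested, and their median was 0.49 against 0.01 for all genes. At an FDR of 0.05 edgeR called 0 of the 39, as it did over all genes (0%), and DESeq2 also called 0 of them where it called 0.236% of all genes. At an unadjusted p under 0.05 in edgeR's quasi-likelihood test, 10 of the 39 were higher in Ripk1-hepKO (25.6%, against 3.86% of all genes) and 0 were lower (against 2.82%). Those 10 were Col4a1, Col4a2, Tgfb1, Tgfbr2, Loxl1, Pdgfra, Col5a1, Loxl2, Hgf and Lrat. All 4 Ripk1-hepKO livers lay above all 4 controls for 5 genes (12.8%, against 2.01% of all genes): Col4a1, Col4a2, Lamb1, Loxl2 and Tgfb1. The genes share cells and mice, so these counts are not independent of each other.

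One liver carried much of this difference. Mouse 28 was the highest of the 8 for 30 of the 39 genes (76.9%) and the lowest for 0, while over all genes tested it was the highest for 26.3% and the lowest for 26.8%. Among the controls, mouse 40 was the lowest for 15 genes and mouse 32 for 14. Relative to the mean of the 8 mice, the median deviation of the 39 genes on the log2(CPM + 1) scale was 0.68 in mouse 28, -0.02 in mouse 34, -0.10 in mouse 37 and 0.20 in mouse 39, and among controls it was -0.07 in mouse 29, -0.36 in mouse 32, -0.26 in mouse 40 and -0.04 in mouse 41. Without mouse 28, 36 of the 39 genes still lay above 0 (against 50.7% of all genes), their median was 0.25, and 4 were at an unadjusted p under 0.05 (against 2.70% of all genes): Col4a1, Col4a2, Tgfb1 and Tgfbr2. The count of 10 also became 5 without mouse 32, 5 without mouse 40 and 16 without mouse 37. Over all genes, both directions together, the count of 1017 became 760, 1183 and 1409 in the same fits.

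**Figure D1:**
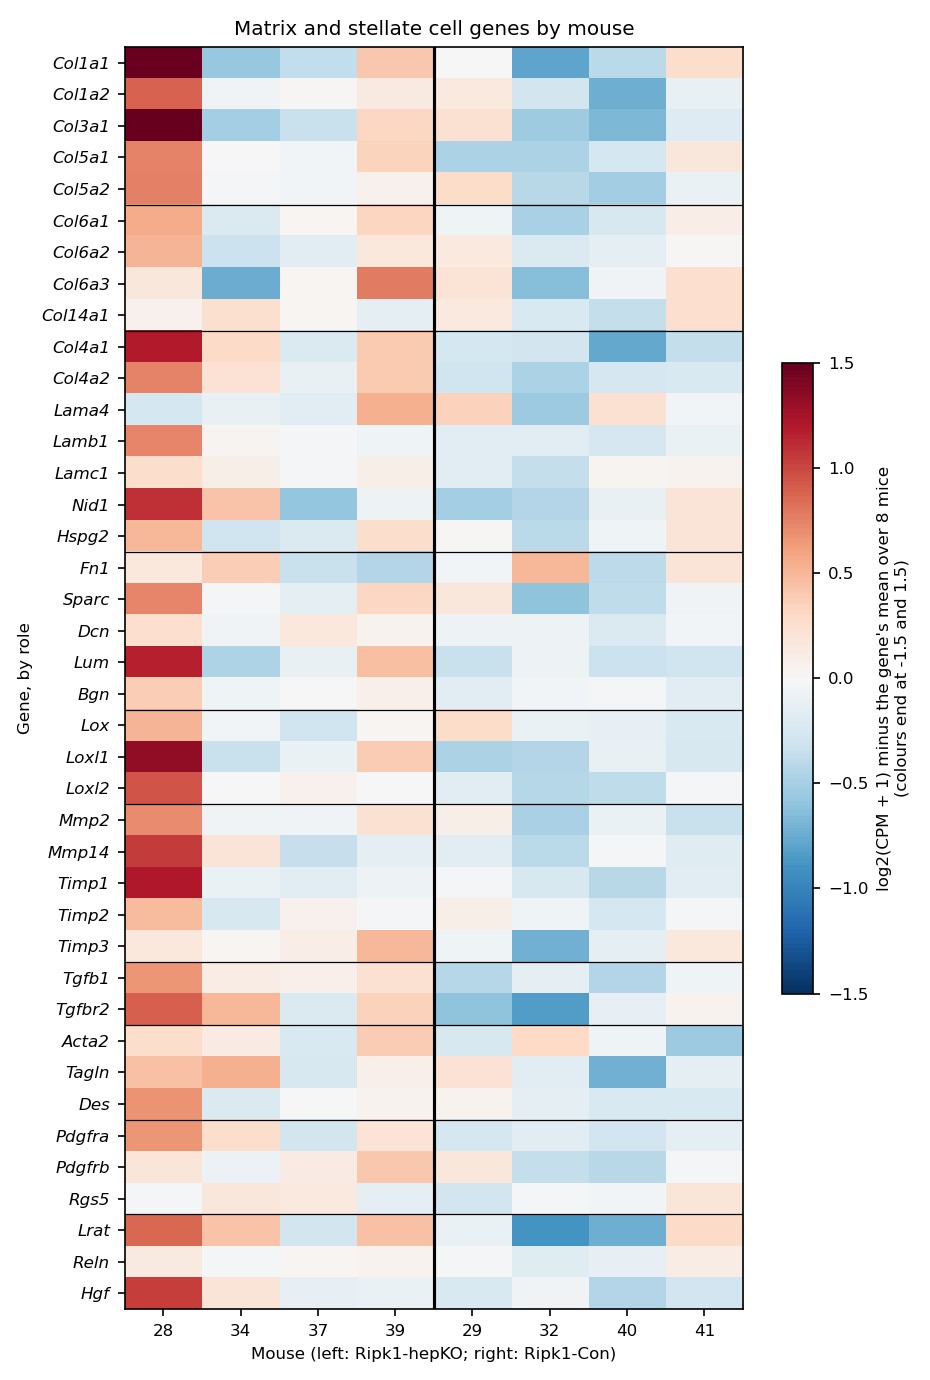
Each row is a gene and each column a mouse, with the 4 Ripk1-hepKO livers on the left and the 4 Ripk1-Con livers on the right; colour gives log2(CPM + 1) minus the gene's mean over the 8 mice, and horizontal lines part the role groups. The column of mouse 28 is the reddest, with the highest value in 30 of the 39 tested genes, and the columns of mice 32 and 40 are the bluest.

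Both TGF-beta genes among the 40, Tgfb1 and Tgfbr2, were higher in value in the Ripk1-hepKO group, without passing the FDR. Tgfb1, the ligand that drives collagen synthesis in stellate cells (ENSMUSG00000002603, chr7:25687002-25705077, plus strand), stood at 10.7, 6.997, 6.77 and 7.64 CPM in Ripk1-hepKO mice 28, 34, 37 and 39, against 4.48, 5.72, 4.45 and 6.03 CPM in Ripk1-Con mice 29, 32, 40 and 41. No overlap was seen between the groups, although the gap between mouse 37 and mouse 41 was small. Tgfb1 averaged 8.01 ± 1.80 CPM in Ripk1-hepKO and 5.17 ± 0.826 CPM in Ripk1-Con livers (SD, n = 4 each), and its fold change on the log2 scale was 0.63 ± 0.19 (SE; edgeR unadjusted p = 0.00933, adjusted p = 0.742). Without mouse 28 it was 0.46 (unadjusted p = 0.0192).

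Tgfbr2, which encodes the receptor subunit that binds TGF-beta (chr9:116084293-116175360, minus strand), stood at 76.8, 58.2, 35.0 and 52.2 CPM in Ripk1-hepKO mice 28, 34, 37 and 39, against 26.6, 22.4, 37.4 and 42.3 CPM in Ripk1-Con mice 29, 32, 40 and 41. Mouse 37 lay within the controls and the other 3 Ripk1-hepKO livers lay above them. On the log2 scale the fold change was 0.79 ± 0.27 (SE, n = 4 each; edgeR unadjusted p = 0.0156, adjusted p = 0.742), and 0.59 without mouse 28.

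Within the basement membrane group, the type IV collagen chains had the lowest p of all 40 genes. Col4a1 and Col4a2 encode the chains that form the sheet-like network of basement membranes, and the annotation places them head to head on chromosome 8, Col4a1 on the minus strand (chr8:11198423-11312826) and Col4a2 on the plus strand (chr8:11312805-11449287), so that their first exons share 22 bases. Col4a1 stood at 92.3, 48.6, 34.1 and 52.6 CPM in Ripk1-hepKO mice 28, 34, 37 and 39, against 32.9, 32.7, 23.0 and 30.9 CPM in Ripk1-Con mice 29, 32, 40 and 41. Every Ripk1-hepKO liver exceeded every control, mouse 37 by little and mouse 28 by most. Its log2 fold change was 0.93 ± 0.28 (SE, n = 4 each; edgeR unadjusted p = 0.00832, adjusted p = 0.742), and 0.59 without mouse 28 (unadjusted p = 0.00793).

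Col4a2 gave 40.1, 27.6, 21.8 and 31.1 CPM in Ripk1-hepKO mice 28, 34, 37 and 39, against 19.0, 16.6, 19.6 and 19.9 CPM in Ripk1-Con mice 29, 32, 40 and 41. Again the groups did not overlap, and the order of the 4 Ripk1-hepKO livers was the same as for Col4a1. On the log2 scale the fold change was 0.68 ± 0.18 (SE, n = 4 each; edgeR unadjusted p = 0.00349, adjusted p = 0.742), 0.51 without mouse 28 and 0.53 without mice 28 and 40. The ratio of Col4a1 to Col4a2, as log2, averaged 0.86 ± 0.24 in the Ripk1-hepKO livers and 0.66 ± 0.32 in the Ripk1-Con livers (SD, n = 4 each; exact two-sided permutation p = 0.400, adjusted over 4 ratios 0.971).

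Laminins, nidogen and perlecan, which complete the basement membrane, differed less. Lamb1, the laminin beta chain, had no overlap between groups, with 5.43 to 10.2 CPM in Ripk1-hepKO and 4.65 to 5.30 CPM in Ripk1-Con, and gave a log2 value of 0.44 ± 0.22 (SE, edgeR unadjusted p = 0.0720) that was 0.18 without mouse 28. The gamma chain gene Lamc1 gave 0.22 ± 0.13. Nid1, the nidogen that links laminin to type IV collagen, ranged from 34.9 to 114 CPM in Ripk1-hepKO and from 36.8 to 60.8 CPM in Ripk1-Con, so that the Ripk1-hepKO group held both the lowest and the highest liver; the log2 value of 0.55 became 0.17 without mouse 28. The log2 fold changes of Hspg2 (perlecan) and of Lama4, the laminin chain of vessels, were 0.16 ± 0.21 and 0.01 ± 0.34. In this group of 7 genes all lay above 0 (against 51.8% of all genes), with a median of 0.44. At an unadjusted p under 0.05 there were 2 (28.6%, against 3.86% of all genes). Without mouse 28 the median of these genes was 0.17, and 2 were at that p. Sinusoidal endothelium also makes these proteins. Of its 8 markers, 4 lay above 0, none was at 0 in every mouse, and the mean level on the log2(CPM + 1) scale was 4.50 to 5.12 in Ripk1-hepKO and 4.10 to 5.01 in Ripk1-Con, with Ripk1-Con mouse 32 the lowest.

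Fibrillar collagens, the main substance of scar tissue, were higher in the Ripk1-hepKO group largely through mouse 28. Col1a1 (ENSMUSG00000001506, chr11:94936224-94953042, plus strand) encodes the more abundant chain of type I collagen. It stood at 13.8, 2.56, 3.11 and 5.99 CPM in Ripk1-hepKO mice 28, 34, 37 and 39, against 4.28, 2.05, 3.02 and 5.37 CPM in Ripk1-Con mice 29, 32, 40 and 41. Only mice 28 and 39 lay above the controls, and mice 34 and 37 lay in their midst. Its log2 fold change of 0.80 ± 0.53 (SE, n = 4 each; edgeR unadjusted p = 0.170, adjusted p = 0.790) was 0.09 without mouse 28.

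Col3a1, the type III collagen of early scars, showed the same picture, at 44.9, 8.89, 10.2 and 16.5 CPM in Ripk1-hepKO mice 28, 34, 37 and 39, against 15.6, 8.76, 7.84 and 11.4 CPM in Ripk1-Con mice 29, 32, 40 and 41. Its log2 value, 0.89 ± 0.50 (SE; adjusted p = 0.770 by edgeR), was 0.13 without mouse 28 and 0.00 without mice 28 and 40. Col1a2, the other type I chain, stood at 20.2, 10.04, 10.6 and 11.6 CPM in Ripk1-hepKO, against 11.7, 8.52, 5.91 and 9.62 CPM in Ripk1-Con, in the same order of mice. Mouse 29 was the control that overlapped, and the log2 fold change was 0.55 ± 0.27 (SE; edgeR adjusted p = 0.762), 0.27 without mouse 28 and 0.12 without mice 28 and 40. The ratio of Col1a1 to Col1a2, as log2, averaged -1.31 ± 0.67 in the Ripk1-hepKO livers and -1.33 ± 0.55 in the Ripk1-Con livers (SD, n = 4 each; exact two-sided permutation p = 0.971), with a difference of 0.02 that changes sign when single mice are left out.

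Of the type V chains, which start and limit the thickness of type I fibrils, Col5a1 was the only fibrillar collagen gene at an unadjusted p under 0.05. It stood at 13.8, 7.89, 7.59 and 10.2 CPM in Ripk1-hepKO mice 28, 34, 37 and 39, against 5.36, 5.38, 6.38 and 8.95 CPM in Ripk1-Con mice 29, 32, 40 and 41. Mouse 41 was the one control inside the Ripk1-hepKO range. On the log2 scale the fold change was 0.60 ± 0.24 (SE, n = 4 each; edgeR unadjusted p = 0.0348, adjusted p = 0.742), and 0.40 without mouse 28. Its partner Col5a2 gave 0.51 ± 0.31, with mouse 28 at 6.16 CPM and the other Ripk1-hepKO livers at 3.13 to 3.41 CPM. All 5 fibrillar genes lay above 0, with a median of 0.60 that was 0.21 without mouse 28.

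**Figure D2:**
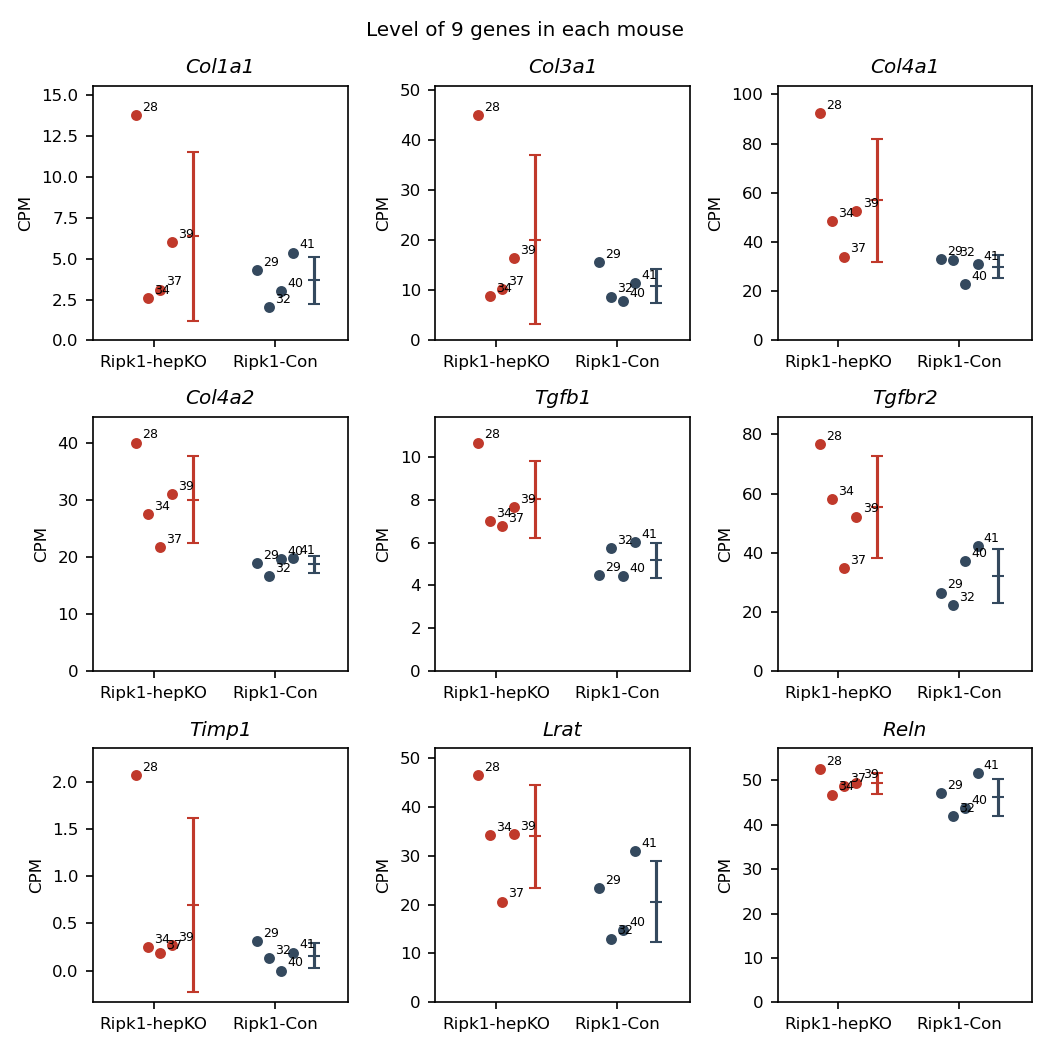
Points are CPM in single mice, labelled with the mouse number, and the bars beside them give the mean and SD of 4 mice; Ripk1-hepKO is on the left of each panel and Ripk1-Con on the right. Col4a1, Col4a2 and Tgfb1 do not overlap between the groups, while in Col1a1, Col3a1 and Timp1 mouse 28 lies far above the other Ripk1-hepKO livers.

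Collagens of the type VI beaded filament and type XIV collagen had no gene at an unadjusted p under 0.05. Col6a1 stood at 10.9, 5.94, 7.24 and 9.04 CPM in Ripk1-hepKO mice 28, 34, 37 and 39, against 6.70, 4.77, 5.81 and 7.67 CPM in Ripk1-Con mice 29, 32, 40 and 41. Col6a2 stood at 5.15, 2.45, 2.87 and 3.83 CPM in Ripk1-hepKO, against 3.77, 2.70, 2.89 and 3.37 CPM in Ripk1-Con, in the same order. For both genes mouse 28 was the highest and the remaining livers were mixed. Their log2 fold changes were 0.41 ± 0.22 and 0.17 ± 0.25 (SE; edgeR adjusted p = 0.770 and 0.907), and 0.25 and -0.054 without mouse 28. Col6a3 was highest in mouse 39, at 8.57 CPM, and gave 0.22 ± 0.38. Col14a1, a collagen on fibril surfaces that stellate cells express at rest, was nearly level, with 27.5 to 35.9 CPM in Ripk1-hepKO and 23.4 to 36.2 CPM in Ripk1-Con.

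Matrix glycoproteins and proteoglycans were led by Fn1, fibronectin, the most abundant of the 40 genes. It stood at 3094, 3573, 2198 and 2054 CPM in Ripk1-hepKO mice 28, 34, 37 and 39, against 2691, 3922, 2112 and 3174 CPM in Ripk1-Con mice 29, 32, 40 and 41. Overlap between the groups was complete, and Fn1 was the one gene below 0, at -0.12 ± 0.24 (SE; edgeR adjusted p = 0.928). Without mouse 32 its direction turned, to 0.039. Dcn, decorin, a small proteoglycan of fibrils, stood at 231, 186, 215 and 200.2 CPM in Ripk1-hepKO, against 183, 184, 166 and 188 CPM in Ripk1-Con, in the same order of mice. Mouse 34 fell within the controls, and the log2 fold change was small and precise, at 0.21 ± 0.10 (SE; edgeR unadjusted p = 0.0750). Lum, lumican, a relative of decorin, stood at 20.2, 5.88, 7.75 and 11.9 CPM in Ripk1-hepKO, against 6.50, 7.97, 6.54 and 6.70 CPM in Ripk1-Con. Mouse 34 was the lowest of the 8 and mouse 28 the highest, and the fold change on the log2 scale was 0.72 ± 0.34 (edgeR unadjusted p = 0.0622) that was 0.30 without mouse 28. Sparc, a collagen-binding glycoprotein, and Bgn, biglycan, gave 0.45 ± 0.23 and 0.20 ± 0.12, and 0.25 and 0.10 without mouse 28.

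Cross-linking enzymes were scarce, and mouse 28 was the highest for each. Loxl1, a lysyl oxidase relative that acts on elastic fibres, stood at 2.88, 0.223, 0.444 and 1.01 CPM in Ripk1-hepKO mice 28, 34, 37 and 39, against 0.114, 0.145, 0.432 and 0.309 CPM in Ripk1-Con mice 29, 32, 40 and 41. Mice 28 and 39 lay clear above the controls, and mouse 34 lay among them. Its log2 fold change was 2.23 ± 0.80 (SE; edgeR unadjusted p = 0.0203, adjusted p = 0.742), with a 95% interval from 0.43 to 4.02, and 1.22 without mouse 28. Loxl2, which cross-links type IV collagen, stood at 8.08, 3.71, 3.92 and 3.68 CPM in Ripk1-hepKO, against 3.22, 2.51, 2.62 and 3.63 CPM in Ripk1-Con, in the same order. The groups did not overlap, by the narrow margin between mice 39 and 41, and the log2 fold change was 0.70 ± 0.29 (edgeR unadjusted p = 0.0401, adjusted p = 0.742), or 0.33 without mouse 28. Lox itself, lysyl oxidase, was near the floor of detection, at 0.752, 0.195, 0 and 0.253 CPM in Ripk1-hepKO, against 0.485, 0.145, 0.133 and 0.0475 CPM in Ripk1-Con. The 0 counts of mouse 37 allow up to 0.0700 CPM. Tested without the filter, Lox gave a fold change of 0.62 on the log2 scale (edgeR adjusted p = 0.901).

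Matrix proteases and their inhibitors included the most uneven gene. Timp1, an inhibitor of matrix metalloproteinases that injury induces (chrX:20870166-20874735, plus strand, within the span of Syn1), stood at 2.07, 0.251, 0.187 and 0.271 CPM in Ripk1-hepKO mice 28, 34, 37 and 39, against 0.314, 0.129, 0 and 0.190 CPM in Ripk1-Con mice 29, 32, 40 and 41. Mouse 28 was far above every other liver, and the remaining 3 Ripk1-hepKO livers lay within the control range. The 0 counts of mouse 40 allow up to 0.0995 CPM. On the log2 scale the fold change of 2.12 ± 0.99 (SE; edgeR unadjusted p = 0.0595, adjusted p = 0.7503) was 0.56 without mouse 28.

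Mmp2, the type IV collagenase that stellate cells secrete, stood at 2.79, 1.23, 1.24 and 1.71 CPM in Ripk1-hepKO mice 28, 34, 37 and 39, against 1.45, 0.647, 1.16 and 0.831 CPM in Ripk1-Con mice 29, 32, 40 and 41. Mouse 29 was the control that overlapped, and the log2 fold change was 0.78 ± 0.37 (SE; edgeR unadjusted p = 0.0600), and 0.46 without mouse 28. Mmp14, which activates Mmp2 at the cell surface, was at 103 CPM in mouse 28, while the other Ripk1-hepKO livers had 38.6 to 56.8 CPM and the controls 37.2 to 48.6 CPM, so that its log2 fold change of 0.49 was 0.11 without mouse 28. The inhibitors Timp2 and Timp3 gave log2 fold changes of 0.17 ± 0.18 and 0.38 ± 0.19. Timp3 lies within Syn3 and shares 1733 exon bases with it, so part of its reads could belong to that gene if strand was not used in counting. All 5 genes lay above 0 and 0 were at an unadjusted p under 0.05.

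**Figure D3:**
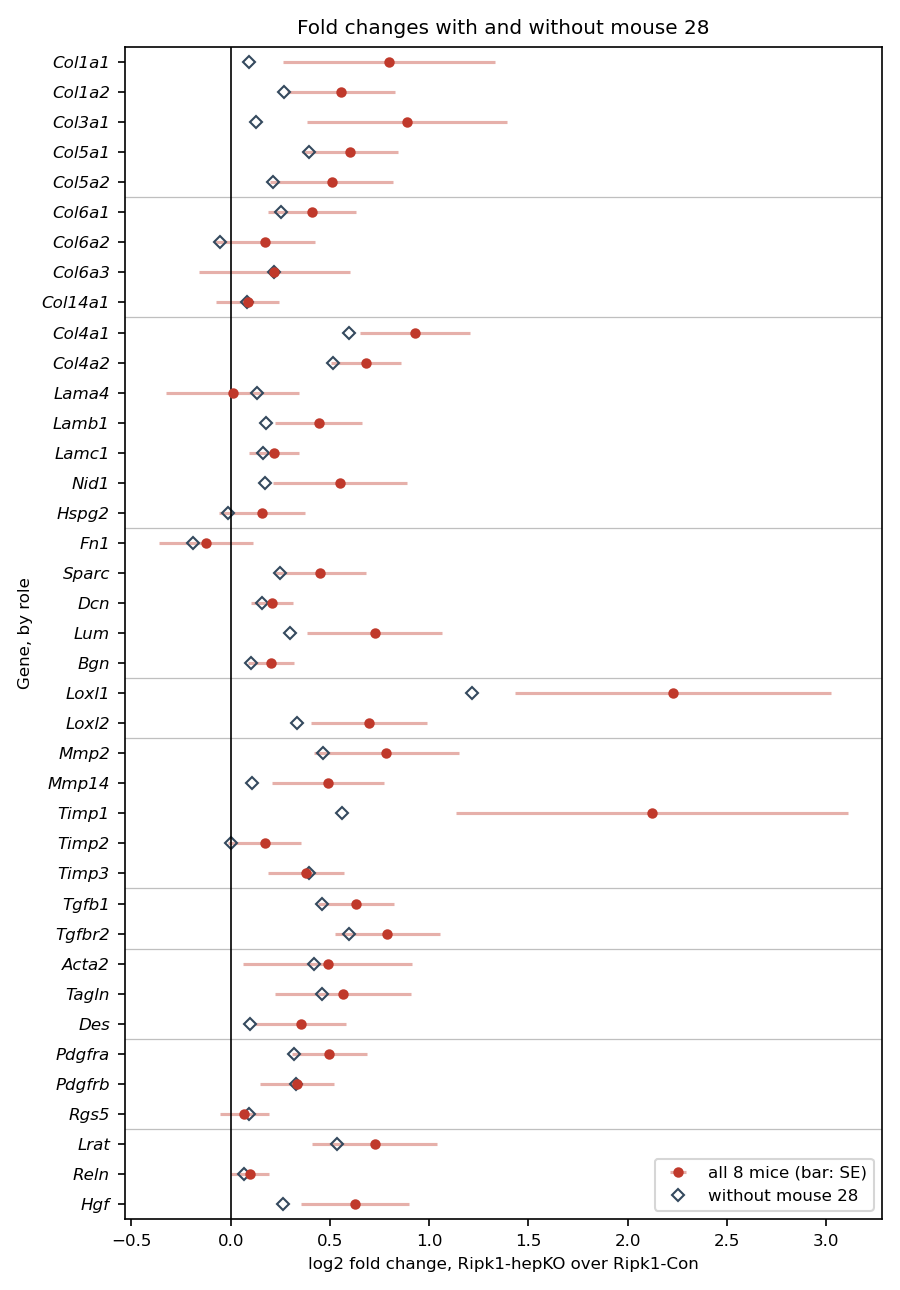
Filled points give the log2 fold change, Ripk1-hepKO over Ripk1-Con, from all 8 mice with its SE, and open diamonds the value without mouse 28, for the 39 tested genes in their role groups. Most diamonds lie closer to 0 than the points, most of all for Timp1, Loxl1, Col3a1 and Col1a1.

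Contractile and filament genes of the myofibroblast were low and overlapped between groups. Acta2, smooth muscle actin, the usual mark of activated stellate cells, stood at 1.41, 1.20, 0.724 and 1.62 CPM in Ripk1-hepKO mice 28, 34, 37 and 39, against 0.713, 1.49, 0.930 and 0.380 CPM in Ripk1-Con mice 29, 32, 40 and 41. Each group held both a high and a low liver, and mouse 28 was not the highest. Its log2 fold change was 0.49 ± 0.43 (SE; edgeR adjusted p = 0.830), with a 95% interval from -0.47 to 1.45. Tagln, transgelin, an actin-binding protein, stood at 3.46, 3.79, 1.80 and 2.49 CPM in Ripk1-hepKO, against 2.82, 1.94, 0.996 and 2.02 CPM in Ripk1-Con, in the same order. Des, the intermediate filament desmin of resting and active stellate cells, stood at 9.55, 4.68, 5.65 and 5.87 CPM in Ripk1-hepKO, against 5.88, 5.03, 4.65 and 4.65 CPM in Ripk1-Con. Only mouse 28 exceeded the controls for Des. The log2 fold changes of Tagln and Des were 0.56 ± 0.34 and 0.35 ± 0.23 (edgeR adjusted p = 0.779 and 0.787), and 0.46 and 0.098 without mouse 28. Tagln, with an exon length of 1988 bases, shares 1349 bases with Gm48529 and Pcsk7 on the annotation, summed over those genes. Part of its reads could belong to them if strand was not used in counting. Vascular smooth muscle, the other source of these proteins, had 2 of 4 tested markers above 0 and a mean level of 2.05 to 2.21 on the log2(CPM + 1) scale in Ripk1-hepKO and 2.09 to 2.19 in Ripk1-Con, with none of its 6 markers at 0 in every mouse.

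PDGF receptors, through which stellate cells are driven to divide, were modestly higher in value. Pdgfra stood at 24.9, 18.7, 12.5 and 17.8 CPM in Ripk1-hepKO mice 28, 34, 37 and 39, against 12.7, 13.5, 12.4 and 13.8 CPM in Ripk1-Con mice 29, 32, 40 and 41. Controls were tightly grouped, mouse 37 lay among them and the other 3 Ripk1-hepKO livers lay above, and the fold change on the log2 scale was 0.50 ± 0.19 (SE; edgeR unadjusted p = 0.0272, adjusted p = 0.742). Without mouse 28 it was 0.32 (edgeR unadjusted p = 0.0628). Pdgfrb, the form by which stellate cells are usually recognised, stood at 10.2, 8.36, 9.86 and 12.1 CPM in Ripk1-hepKO, against 10.2, 6.77, 6.44 and 8.86 CPM in Ripk1-Con, in the same order. Mouse 39 was the highest, mouse 29 matched mouse 28, and the log2 fold change of 0.33 ± 0.19 (edgeR adjusted p = 0.770) was 0.33 without mouse 28 too. Rgs5, a regulator of G protein signalling in pericytes, was level, at 36.4 to 45.7 CPM in Ripk1-hepKO and 33.4 to 46.1 CPM in Ripk1-Con.

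Markers of resting stellate cells lay above 0 as well, though none passed the FDR. Lrat, which esterifies retinol for storage (ENSMUSG00000028003, chr3:82892579-82903973, minus strand, within the span of Rbm46os), stood at 46.4, 34.2, 20.6 and 34.4 CPM in Ripk1-hepKO mice 28, 34, 37 and 39, against 23.4, 13.05, 14.8 and 30.9 CPM in Ripk1-Con mice 29, 32, 40 and 41. Mice 28, 34 and 39 lay above every control, and mouse 37 lay below mice 29 and 41. On the log2 scale the fold change was 0.72 ± 0.31 (SE, n = 4 each; edgeR unadjusted p = 0.0466, adjusted p = 0.747), and 0.54 without mouse 28. Reln, reelin, a secreted glycoprotein that stellate cells make in liver, was the steadiest of the 40 genes within the Ripk1-hepKO group, at 52.5, 46.8, 48.7 and 49.5 CPM, against 47.2, 42.0, 43.7 and 51.7 CPM in Ripk1-Con. The groups overlapped and the log2 fold change was 0.10 ± 0.10 (edgeR adjusted p = 0.851). Hgf, the hepatocyte growth factor that stellate cells send to hepatocytes, stood at 26.8, 14.5, 11.5 and 11.6 CPM in Ripk1-hepKO, against 10.6, 12.01, 8.97 and 10.1 CPM in Ripk1-Con. Mouse 28 was the highest, mice 37 and 39 lay below control mouse 32, and the log2 fold change of 0.63 ± 0.27 (edgeR unadjusted p = 0.0450, adjusted p = 0.742) was 0.26 without mouse 28. The log2 ratio of Col3a1 to Lrat CPM, a fibrillar collagen over a resting marker, averaged -1.02 ± 0.77 in the Ripk1-hepKO livers and -0.88 ± 0.41 in the Ripk1-Con livers (SD, n = 4 each; exact two-sided permutation p = 0.743, adjusted over 4 ratios 0.971). The ratio of Timp1 to Mmp2 averaged -2.03 ± 1.084 on the log2 scale in 4 Ripk1-hepKO livers and -2.22 ± 0.097 in the 3 Ripk1-Con livers with a Timp1 count (exact two-sided permutation p = 0.971).

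Role groups can be set side by side by their medians. The median log2 fold change was 1.46 for the 2 tested cross-linking enzymes, 0.71 for the TGF-beta ligand and receptor, 0.63 for the 3 resting markers, 0.60 for the fibrillar collagens, 0.49 for proteases and inhibitors, 0.49 for the contractile genes, 0.44 for the basement membrane, 0.33 for the PDGF receptors with Rgs5, 0.21 for glycoproteins and proteoglycans, and 0.20 for the type VI and XIV collagens. Without mouse 28 the order changed, with 0.77 for the cross-linking enzymes, 0.53 for Tgfb1 and Tgfbr2, 0.42 for the contractile genes, 0.40 for proteases and inhibitors, 0.32 for the PDGF group, 0.26 for the resting markers, 0.21 for the fibrillar collagens, 0.17 for the basement membrane, 0.16 for glycoproteins and proteoglycans and 0.15 for the type VI and XIV collagens. No test was made between the groups.

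Levels of different genes were compared per kilobase of annotated exon. On this scale the Fn1 level was 234 ± 62.2 CPM per kb in the Ripk1-hepKO livers and 255 ± 65.6 CPM per kb in the Ripk1-Con livers (SD, n = 4 each). Dcn followed at 35.7 ± 3.30 and 30.9 ± 1.61 CPM per kb, and Bgn at 16.4 ± 2.33 and 14.2 ± 0.789 CPM per kb in Ripk1-hepKO and Ripk1-Con. The gaps between these 3 genes were far larger than their spread. The next ranks, Sparc and Rgs5, had levels of 14.4 ± 4.19 and 9.16 ± 0.978 CPM per kb in Ripk1-hepKO and 10.5 ± 2.54 and 8.73 ± 1.15 CPM per kb in Ripk1-Con, neighbours that overlapped among the controls. Col4a1 stood at 7.62 ± 3.33 CPM per kb in Ripk1-hepKO and 4.005 ± 0.622 CPM per kb in Ripk1-Con, and the Lrat level was 6.34 ± 1.97 against 3.84 ± 1.55 CPM per kb. Fibrillar collagens were lower than these resting and basement membrane genes in both groups. Col3a1 stood at 2.05 ± 1.72 CPM per kb in Ripk1-hepKO and 1.11 ± 0.353 CPM per kb in Ripk1-Con, and Col1a1 at 0.969 ± 0.787 against 0.561 ± 0.221 CPM per kb, rank 29 of 40 in the controls. Acta2 stood at 0.565 ± 0.175 against 0.400 ± 0.212 CPM per kb, and Lox was last, at 0.063 ± 0.067 against 0.042 ± 0.040 CPM per kb. Exon length was the union over all annotated transcripts, which understates genes with long rare isoforms.

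**Figure D4:**
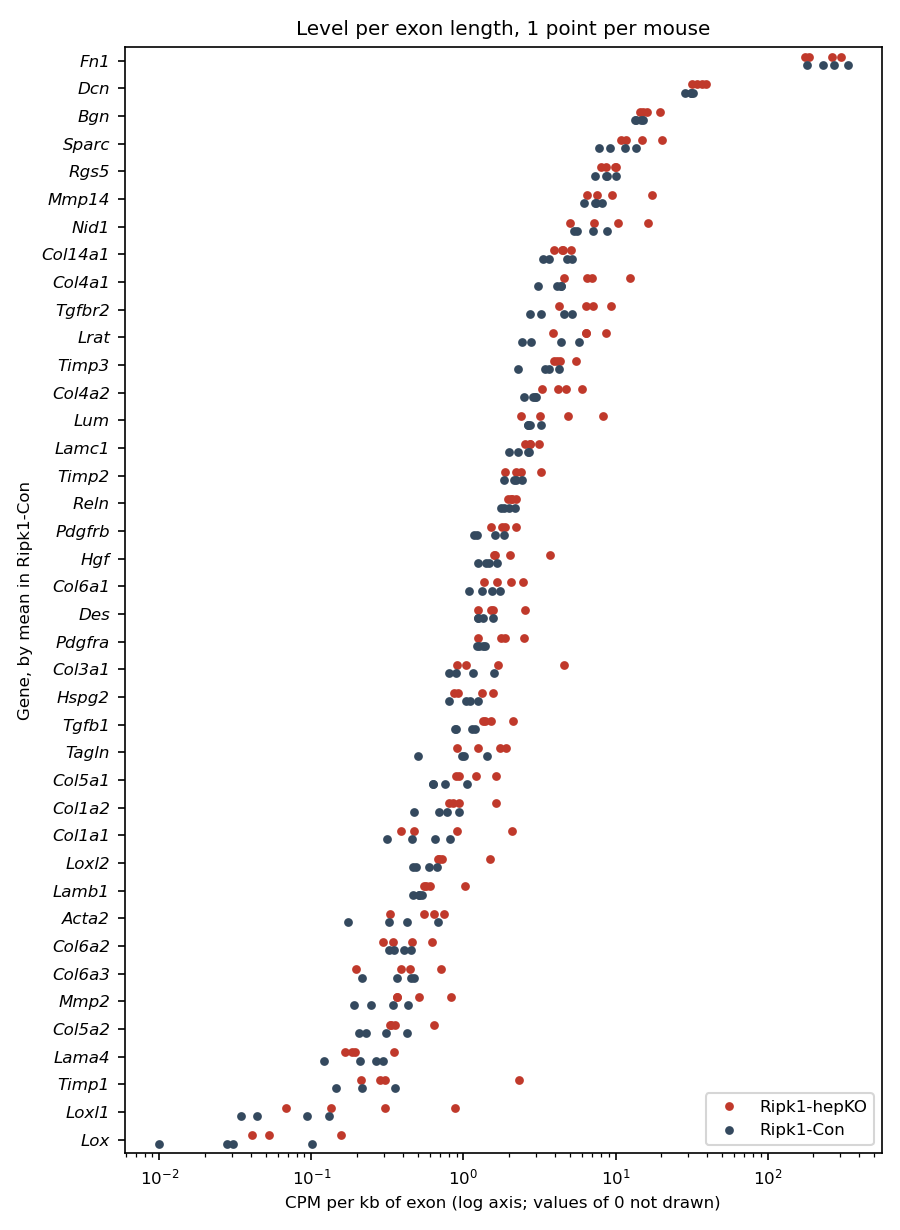
Each point is the level of a gene in 1 mouse as CPM per kb of exon on a log axis, with Ripk1-hepKO drawn above Ripk1-Con in each row genes ordered by their mean in Ripk1-Con and values of 0 not drawn. Fn1 lies far to the right, Dcn and Bgn follow, and Col1a1, Acta2 and the lysyl oxidases lie in the lower part, with mouse 28 (points carry no number) as the separate point to the right in Timp1 and Col3a1.

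Pairs of genes were followed across the 8 mice, both groups together, in 8 relations on the log2(CPM + 1) scale. Col4a1 and Col4a2 gave a Pearson r of 0.92 (exact permutation p = 0.00231, adjusted 0.0109) and a Spearman rho of 0.81 (exact permutation p = 0.0218, adjusted 0.0871). Col1a1 and Col3a1 gave an r of 0.94 (exact permutation p = 0.00273, adjusted 0.0109) and a rho of 0.90 (exact permutation p = 0.00456, adjusted 0.0365). The r of Col1a1 was 0.81 with Col1a2, 0.77 with Lrat and 0.86 with Timp1 (adjusted exact permutation p = 0.0378 each), where rho was 0.71, 0.76 and 0.71 (adjusted exact permutation p = 0.0921 each). With Tgfb1 r was 0.68 and rho 0.55 (adjusted exact permutation p = 0.0876 and 0.228), and with Acta2 r was 0.11 and rho -0.02 (adjusted exact permutation p = 0.856 and 0.977). Col4a1 and the endothelial gene Stab2 gave an r of -0.08 and a rho of -0.07 (adjusted exact permutation p = 0.856 and 0.977). Once the 2 mice farthest from the median of the first gene were left out (28 and 39 for Col4a1, 28 and 32 for Col1a1), r was 0.68 for Col4a1 with Col4a2, 0.80 for Col1a1 with Col3a1, 0.42 with Col1a2, 0.44 with Lrat and 0.38 with Timp1, and no adjusted exact permutation p of r was below 0.511. Col1a1 and Col3a1 kept a rho of 0.89 over these 6 mice (exact permutation p = 0.0333, adjusted 0.267), close to that over 8. For Col1a1 with Col1a2, Lrat and Timp1, r was much lower without the 2 mice. Leaving out the outermost mice narrows the range of the first gene, which by itself lowers r. The fall therefore cannot show whether these relations rest on those mice. All genes of a pair come from the same library and share its depth. Genotypes were pooled, and Col4a1 and Col4a2 did not overlap between them, so the group difference is part of their r. The 2 mice left out for Col4a1 were both Ripk1-hepKO. Among the controls Col4a1 was lowest in mouse 40 and Col4a2 in mouse 32. Relations within a group were not tested.

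Other genes of the pathway were taken from 5 lists. Of 32 tested structural matrix genes beyond the 40, 18 lay above 0, the median being 0.03 on the log2 scale, with 2 at an unadjusted p under 0.05, both higher. These shares, 56.2% and 6.25%, were near those of all genes (51.8% and 3.86%), and the 2 became 0 without mouse 28. Thbs1, thrombospondin, which activates latent TGF-beta, stood at 28.4, 3.09, 1.68 and 3.95 CPM in Ripk1-hepKO mice 28, 34, 37 and 39, against 2.48, 1.79, 0.830 and 1.26 CPM in Ripk1-Con mice 29, 32, 40 and 41. Fbn1, fibrillin, averaged 4.09 ± 1.67 against 2.19 ± 0.794 CPM. Mouse 28 was the highest for both, and their log2 fold changes of 2.54 and 0.91 were 0.87 and 0.59 without it. The lowest p values in the other direction belonged to Col8a1, at 0.293 ± 0.0747 against 0.436 ± 0.0669 CPM, and Lamb3, at 4.49 ± 1.63 against 6.01 ± 2.61 CPM (edgeR adjusted p = 0.770 and 0.819).

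Collagen folding and processing genes had 12 of 17 above 0 (70.6%, against 51.8% of all genes) and a median of 0.18. At an unadjusted p under 0.05 there were 2 (11.8%, against 3.86% of all genes). Without mouse 28 the median was 0.037 and the 2 became 0. Tgm2, tissue transglutaminase, which cross-links matrix proteins, stood at 2857, 359, 148 and 184 CPM in Ripk1-hepKO mice 28, 34, 37 and 39, against 206, 213, 172 and 189.8 CPM in Ripk1-Con mice 29, 32, 40 and 41. Mouse 28 stood at several times the level of every other liver, and the log2 fold change of 2.18 (edgeR adjusted p = 0.742) was 0.24 without it. P3h1, a collagen prolyl hydroxylase, averaged 28.5 ± 11.3 CPM in Ripk1-hepKO and 19.3 ± 2.24 CPM in Ripk1-Con, P4ha2, another one, 9.59 ± 2.53 and 10.7 ± 0.512 CPM, and Adamts14, a procollagen peptidase, 1.84 ± 0.172 and 2.04 ± 0.200 CPM.

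Further proteases and inhibitors had 16 of 19 above 0 (84.2%, against 51.8% of all genes) and a median of 0.30. At an unadjusted p under 0.05 there were 4, all higher (21.1%, against 3.86% of all genes). Without mouse 28 the median was 0.11 and the 4 became 1. Adamts4, an aggrecanase, stood at 19.9, 0.920, 0.467 and 0.289 CPM in Ripk1-hepKO mice 28, 34, 37 and 39, against 0.371, 0.469, 0.232 and 0.309 CPM in Ripk1-Con mice 29, 32, 40 and 41. Plaur, the urokinase receptor, averaged 2.30 ± 2.02 CPM in Ripk1-hepKO and 0.736 ± 0.192 CPM in Ripk1-Con, with mouse 28 at 5.30 CPM. Both genes were set apart by mouse 28, and their log2 fold changes of 3.93 and 1.63 were 0.65 and 0.80 without it. Mmp11 averaged 0.364 ± 0.148 against 0.533 ± 0.241 CPM and Mmp19, 84.1 ± 23.2 against 90.8 ± 11.0 CPM, in Ripk1-hepKO and Ripk1-Con.

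Further TGF-beta and PDGF signalling genes had 21 of 31 above 0 (67.7%, against 51.8% of all genes) and a median of 0.04. At an unadjusted p under 0.05 there was 1 (3.23%, against 3.86% of all genes). Without mouse 28, 15 lay above 0, the median was -0.015 and the 1 became 0. That gene was Pdgfa, a ligand of the PDGF receptors, at 6.32, 4.29, 3.01 and 3.38 CPM in Ripk1-hepKO mice 28, 34, 37 and 39, against 1.43, 1.68, 3.89 and 2.45 CPM in Ripk1-Con mice 29, 32, 40 and 41. Mouse 40 was the control inside the Ripk1-hepKO range, and the log2 fold change was 0.86 ± 0.36 (SE; edgeR adjusted p = 0.742). Ltbp1, which holds TGF-beta latent in the matrix, averaged 5.26 ± 0.989 CPM in Ripk1-hepKO and 4.01 ± 0.573 CPM in Ripk1-Con, the signal carrier Smad2 averaged 12.6 ± 0.493 and 14.2 ± 1.65 CPM, and its repressor Ski 39.4 ± 4.10 and 44.5 ± 5.44 CPM.

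Stellate cell markers other than the 40 genes had 15 of 22 above 0 (68.2%, against 51.8% of all genes) and a median of 0.17. At an unadjusted p under 0.05 there were 2 (9.09%, against 3.86% of all genes). Without mouse 28 these values were 16, 0.13 and 2. Cygb, cytoglobin, an oxygen-binding protein of stellate cells, stood at 20.2, 11.7, 13.1 and 13.6 CPM in Ripk1-hepKO mice 28, 34, 37 and 39, against 9.67, 10.7, 8.24 and 10.3 CPM in Ripk1-Con mice 29, 32, 40 and 41. Its groups did not overlap, and mouse 28 was the highest. For Cygb the fold change on the log2 scale was 0.59 ± 0.18 (SE; edgeR unadjusted p = 0.0107, adjusted p = 0.742), and 0.39 without mouse 28. On the other side, Lhx2, a transcription factor that keeps stellate cells at rest, averaged 1.78 ± 0.384 CPM in Ripk1-hepKO and 2.46 ± 0.290 CPM in Ripk1-Con (edgeR unadjusted p = 0.0598), and Colec10, a collectin of stellate cells, 21.3 ± 3.61 and 25.3 ± 4.88 CPM.

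Markers of other cells were read beside these genes. All 8 markers of monocytes and lipid-associated macrophages lay above 0, where 51.8% of all genes tested did. Their mean level on the log2(CPM + 1) scale was 1.92 to 2.88 in Ripk1-hepKO and 1.55 to 2.43 in Ripk1-Con. Mouse 28 was the highest and mouse 40 the lowest. Neutrophil markers had 7 of 7 tested above 0, at 0.94 to 2.23 and 0.46 to 2.09, and Kupffer cell markers 6 of 7, at 4.46 to 4.92 and 3.17 to 5.22, in Ripk1-hepKO and Ripk1-Con, with mouse 40 again the lowest. Portal fibroblast markers had 3 of 5 tested above 0, at 0.92 to 1.20 and 0.953 to 0.995, mesothelial markers 4 of 4, at 0.18 to 0.63 and 0.27 to 0.47, cholangiocyte markers 5 of 5, at 1.09 to 1.98 and 1.02 to 1.44, and endothelial markers outside the sinusoidal list 6 of 7, at 3.34 to 3.82 and 2.99 to 3.65. Hepatocyte markers had 0 of 8 above 0. At an unadjusted p under 0.05 in edgeR's test, 2 of them were lower in Ripk1-hepKO (against 2.82% of all genes). For 2 of them every Ripk1-hepKO liver lay below every control (against 2.09% of all genes). None passed the FDR. Without mouse 28, 1 of 5 cholangiocyte markers and 2 of 5 portal fibroblast markers lay above 0. For monocytes and lipid-associated macrophages it was 6 of 8, and 4 of 8 without mice 28 and 40. In that last fit, 5 of 7 neutrophil markers and 1 of 7 Kupffer cell markers lay above 0. No marker of any of these lists was at 0 in every mouse. Mouse 28, the highest for most matrix genes, was thus also the highest in the monocyte, neutrophil, cholangiocyte, portal fibroblast and stellate cell lists. In the vascular smooth muscle list it led by little (2.209 against 2.199 in mouse 39), and with log2(CPM + 0.25) mouse 39 was the highest (1.366 against 1.285). Ripk1-Con mouse 40, often the lowest, was the lowest in the monocyte, Kupffer cell, neutrophil, cholangiocyte and stellate cell lists. The part of these cells in the matrix results was not tested.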

How the data were processed

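RNA of 8 livers was poly(A)-selected and sequenced as dUTP strand-specific libraries, per the labels' protocols. The authors deposited 1 table of raw counts per Ensembl gene; per the submitters' processing notes the tools included STAR 2.5.2b, FastQC 0.11.5, DESeq2 1.38.1 and StringTie 2.2.1, listed without roles, and the build was GRCm38.p6. The counting tool and its strand setting are not given in the sources used here, so overlapping and antisense genes are uncertain. Symbols and positions came from GENCODE M21 (55154 IDs matched, 181 did not), promoter windows from RefSeq.

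Genes were filtered with filterByExpr, scaled by TMM and tested with edgeR 4.0.16 (robust quasi-likelihood fit of genotype, Benjamini-Hochberg over 15234 genes, FDR 0.05) in R 4.3.3. The fit was also run on counts simulated from its own dispersions. No simulated library was set apart as that of mouse 28 was, so the run does not test that case. Floors (3 counts) cover counting error only. No libraries were alike within sampling noise (chi-square per degree of freedom at least 34.0). Alternatives were other scalings and filters, DESeq2 1.42.0, limma 3.58.1 voom, and mice left out. Genes and lists were chosen with earlier results of these data known, so no list was tested. The 40 genes are all named, with values per mouse for 16 of set choice and the 2 of lowest p in each role group; other lists give 2 genes of lowest p in each direction. One gene that this rule names is not reported here.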

Additional observations from a re-analysis of the deposited data

Results flagged for a closer look

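Single samples far from the rest of their group were looked for in 151 groups of 4 mice, and 12 were found, 6 of them in mouse 28; a check of this kind marks about 1 group in 20 where nothing sets a sample apart. In Ripk1-hepKO, mouse 28 stood far above its group for Timp1 (2.07 CPM, others 0.187 to 0.271), Loxl2 (8.08 CPM, others 3.68 to 3.92), Col5a2 (6.16 CPM, others 3.13 to 3.41), Lamb1 (10.2 CPM, others 5.43 to 5.94) and Adamts4 (19.9 CPM, others 0.289 to 0.920), and far below it for Mmp19 (49.7 CPM, others 90.6 to 98.6). Ltbp1 was low in Ripk1-hepKO mouse 34 (3.79 CPM, others 5.58 to 5.88).

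In Ripk1-Con, mouse 32 was high for Lum (7.97 CPM, others 6.50 to 6.70) and low for P3h1 (15.9 CPM, others 20.2 to 20.6). The mean marker level on the log2(CPM + 1) scale was 0.94 for neutrophils in Ripk1-hepKO mouse 39 (others 2.01 to 2.23), 2.99 for endothelium outside the sinusoidal list in Ripk1-Con mouse 32 (others 3.54 to 3.65) and 1.02 for cholangiocytes in Ripk1-Con mouse 40 (others 1.381 to 1.44).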

How the results depend on the processing

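No paired analysis was possible because the groups share no mouse number. Of the 39 genes tested, 31 kept their direction under each of the 15 alternatives that tested them (Loxl1 and Timp1 were not tested with 1 CPM in 4 libraries), and no gene passed the FDR under any of them. Without mice 28 and 40 the median was 0.21 for all genes of the set, 0.082 for fibrillar collagens and 0.93 for cross-linking enzymes. It was 0.25 for contractile genes, 0.24 for the PDGF group and 0.20 for resting markers. In that fit 5 genes of the set were at an unadjusted p under 0.05, all higher. Over all genes, 710 of 15234 were higher at that threshold in the same fit, against 588 with no mouse left out. With 1 CPM in 4 libraries the cross-linking median was 0.70, from Loxl2 alone. With single mice left out, medians ran from 0.25 to 0.65 for the set, 0.21 to 0.79 for fibrillar collagens, 0.77 to 1.69 for cross-linking enzymes, 0.24 to 0.46 for the PDGF group and 0.26 to 0.76 for resting markers. Counts at an unadjusted p under 0.05 ran from 4 to 16 in the set and from 633 to 1409 over all genes. DESeq2 called 36 of all genes where edgeR called 0.

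Directions turned without mice 28 and 40 for Col6a2 (-0.10), Col14a1 (-0.015), Hspg2 (-0.016) and Timp2 (-0.066). With single mice left out, Col6a2 ran from -0.054 to 0.32, Col6a3 from -0.12 to 0.47, Col14a1 from -0.0050 to 0.19, Lama4 from -0.29 to 0.18, Hspg2 from -0.012 to 0.28, Fn1 from -0.27 to 0.039 and Rgs5 from -0.0054 to 0.15. Without the 2 outermost mice Pearson's r was 0.68 (Col4a1 with Col4a2), 0.42 (Col1a1 with Col1a2), 0.80 (with Col3a1), 0.44 (with Lrat), 0.38 (with Timp1) and -0.029 (with Acta2), with adjusted exact permutation p of 0.511 to 0.956. The difference in the log2 ratio of Col1a1 to Col1a2 was -0.020 with CPM + 1 and, with single mice left out, ran from -0.24 to 0.23; that of Timp1 to Mmp2 ran from -0.34 to 0.43 and that of Col3a1 to Lrat from -0.46 to 0.17. Causes were not tested. Depth limits Lox, Timp1 and Loxl1, with few counts in several libraries.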
